A study of Drosophila melanogaster with 2 samples.

Results

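The genes described here were 10 heat shock and chaperone genes of Drosophila melanogaster, of 18164 annotated genes on the 6 main chromosome arms. They were Hsp22, Hsp23, Hsp26, Hsp27, Hsp67Ba, Hsp67Bc, Hsp83, Hsc70-5, stv and Hsf, and they were chosen by name after the deposited peaks near several of them were known. A gene was counted as having a peak where the summit, the base of highest signal in the peak, lay within 1000 bp of any of its annotated transcription start sites or inside the gene. Since the peaks entered the choice of genes, the counts and levels below are descriptions, and no test was made on them.

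The peaks came from chromatin immunoprecipitation and sequencing (ChIP-seq) of CG11294-eGFP, a fusion of the CG11294 protein to a green fluorescent protein, in whole prepupae aged 1 day. The strain, labelled CG11294-GFP, carries an insertion that targets CG11294, and 2 biological replicates of this 1 group were labelled, with chromatin broken by sonication (Bioruptor generic). The free-text description states that GFP was immunoprecipitated, whereas the antibody field carries the name CG11294, and which of these the antibody bound was not tested. Input, untagged flies, heat-shocked flies and other stages were not analysed here, so no condition was compared with another, and whole animals mix all tissues. CG11294 encodes a homeodomain protein, a class of transcription factors of which many bind the core TAAT. The sequencing depth behind each peak was unknown, and the labels give no promoter or copy number for the fusion.

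Chaperones hold other proteins in a folded or foldable state. The small heat shock proteins bind unfolding proteins without using ATP, while the HSP70 and HSP90 machines, helped by co-chaperones, refold or mature them with ATP. On heat stress the factor Hsf binds heat shock elements, arrays of the unit GAA and its reverse, and switches many of these genes on. In flies, several small heat shock genes of the 67B cluster and Hsp83 are also transcribed without heat, in response to the steroid hormone ecdysone around the onset of metamorphosis.

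In the main list, the thresholded list of peaks ranked reproducibly between both replicates, 7 of the 10 genes had a peak: Hsp22, Hsp26, Hsp27, Hsp67Bc, Hsp83, Hsc70-5 and stv. By the same rule 2481 of all 18164 genes (13.7%) had one, or 15.5% of protein-coding genes. The 7 genes shared 8 distinct peaks of the 3260 on the arms, since Hsp22 and Hsp67Bc had one peak between them while Hsp83 and stv had 2 each. The irreproducible discovery rate (IDR), which measures how far a peak's rank fails to repeat, was at most 0.01 for every peak of the main list. Within that list the authors' signal value of a peak ran from 2.02 to 1649 with a median of 110. Signal is given here only to rank peaks within a list, as its scale was not given in the sources used here.

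The second thresholded list of the series, from pooled data, had peaks at the same number of members, 7, against 17.5% of all genes. Replicate 1 alone also had 7, against 14.9% of all genes, and replicate 2 alone had 5, against 12% of all genes. Hsp22, Hsp26, Hsp27, Hsp83 and stv had a thresholded peak in both replicates, which makes 5 of 10 members against 9.38% of all genes. Hsp67Bc and Hsc70-5 had one in replicate 1 and none in replicate 2. Hsp23, Hsp67Ba and Hsf had none in any of the 4 thresholded lists.

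The strongest member peak stood at Hsp27, which encodes a small heat shock protein found in the nucleus. Its summit lay 161 bp upstream of the only annotated start site, with a signal of 882, rank 22 of the main list, in a peak of 307 bp. Its signal was 505 in replicate 1 (rank 27 of 3217) and 370 in replicate 2 (rank 25 of 2708), and the summits of the replicates lay 10 bp apart. Both replicates thus placed Hsp27 in the top 1% of their own lists, and no other member came close to that rank. A stretch of 270 bp of this peak, without its outermost bases on either side, is shown because the peak carries the highest signal of the 10 genes. It is printed 5′ to 3′ on the strand of the gene from the RefSeq Release 6 genome, the sequence of build dm6, with capitals for the homeodomain core TAAT on either strand and for the TATA box word TATAAA on the coding strand, which starts 28 bp before the start site. The summit is base 121.
Hsp27, chr3L:9383782-9384051, plus strand: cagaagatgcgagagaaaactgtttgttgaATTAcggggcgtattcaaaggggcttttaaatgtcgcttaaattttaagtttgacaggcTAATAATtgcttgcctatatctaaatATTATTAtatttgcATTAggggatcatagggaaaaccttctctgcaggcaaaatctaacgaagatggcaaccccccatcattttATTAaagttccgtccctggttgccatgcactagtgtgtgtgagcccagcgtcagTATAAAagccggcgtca

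The 100 bp on each side of the Hsp27 summit held 7 matches to TAAT, the nearest with its first base 2 bp from the summit. They held no match to the longer word TAATTA, a form of the core that many homeodomains prefer, and none to the heat shock unit pair GAANNTTC or TTCNNGAA. Of all main-list windows of this size 92.4% held TAAT, so a match to the short core sets no peak apart.

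Hsp26, a cytosolic small heat shock protein, had a summit 119 bp upstream of the nearer of its 2 start sites, which lie 52 bp apart. Its main-list signal was 223 (rank 543), with 113 in replicate 1 (rank 669) and 105 in replicate 2 (rank 512). The summit was at -134 bp in replicate 1 and at -93 bp in replicate 2, 41 bp apart, and both replicates ranked the peak at a like place in their lists (20.8% and 18.9%). The same summit lay 614 bp upstream of the start of asRNA:CR43481, an antisense RNA on the other strand. The Hsp26 peak is shown for its run of GAGAG, the word of GAGA factor, a protein known to keep heat shock promoters accessible. Capitals mark GAGAG on either strand, the sequence is on the strand of the gene, and the summit is base 83.
Hsp26, chr3L:9377459-9377628, minus strand: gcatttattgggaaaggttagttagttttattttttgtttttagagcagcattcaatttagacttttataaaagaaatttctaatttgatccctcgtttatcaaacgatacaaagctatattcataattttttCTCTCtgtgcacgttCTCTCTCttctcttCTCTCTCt

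Within 100 bp of the Hsp26 summit there were 6 matches to GAGAG, 2 to TAAT, and 2 to the heat shock unit pair. GAGAG occurred within 100 bp of 24.5% of main-list summits, and the unit pair within 100 bp of 11%.

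Hsp22, a small heat shock protein of the mitochondrial matrix, had a summit 506 bp upstream of its nearer start site and inside the 5′ UTR of its other transcript. The signal was 142 in the main list (rank 1150, or 35.3% of the way down), 73.7 in replicate 1 and 69.4 in replicate 2. The rank was close to the same place in both, 40.7% and 40.8%, whereas the summits lay 109 bp apart. By the rule 3 genes share this peak. Hsp67Bc, a small heat shock protein that acts with the stv protein in flies, is divergently transcribed and starts 994 bp away, and CG4456, known by its older name Hsp67Bb, has the summit in its 3′ UTR, 560 bp downstream of its start.

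The distance to Hsp67Bc sat at the edge of the rule. The summit was 994 bp from its start in the main list and 960 bp in replicate 1, just inside the 1000 bp limit, and 1069 bp in replicate 2, just outside. That difference of position alone takes Hsp67Bc out of the replicate 2 count, since the same peak is present there for Hsp22.

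The main-list Hsp22 summit sits on an array of the palindrome TAATTA, which is why the 30 bases around it are shown. The summits of replicates 1 and 2 lay 34 bp and 75 bp from it, on opposite sides, and both fell outside the array and the printed bases. Capitals mark TAATTA, which reads the same on both strands, and the main-list summit is base 11.
Hsp22, chr3L:9373481-9373510, plus strand: taatatTAATTAATTAATTAATTAttaata

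Within 100 bp of this summit TAATTA occurred 5 times, overlapping matches counted, of which 4 form the printed array, and TAAT 17 times. At least 1 TAATTA was found around 16.5% of all main-list summits, but 5 or more around only 2 of the 3260 (0.0613%). The other one, with 6, was the peak of SA1 and Gas41. The 17 matches to TAAT were reached or passed by 3 peaks (0.092%), Hsp22 included. With the window narrowed to 50 bp, Hsp22 had 15, and no other peak of the list had as many. These comparisons were chosen after the Hsp22 count had been seen. The peak with this array was only the sixth strongest of the 8 member peaks.

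The other members of the 67B cluster had no peak. Hsp23, a cytosolic small heat shock protein, had in the full ranked list behind the main list (97080 relaxed peaks) a strongest peak of signal 21.5 at -225 bp, rank 32979 with an IDR of 0.649. Replicate 1 had no relaxed peak at Hsp23, and replicate 2 had a strongest one of 24.6 (rank 9181 of 89463). Hsp67Ba, a gene related to the small heat shock proteins, had a strongest relaxed peak of 40.8 in its coding exon, rank 7324 with an IDR of 0.763. Their nearest main-list summits outside the rule belonged to neighbours, 2020 bp from the Hsp23 start and 1988 bp from the Hsp67Ba start.

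From Hsp67Bc to Hsp27 the 67B cluster spans 14184 bp, chr3L:9371511-9385694, with 10 annotated genes of which 8 code for protein. It held 3 main-list summits, 4055 bp and 6356 bp apart, and the same 3 appeared in the pooled list and in each replicate's list. Of 9435 windows of that length laid along the arms, 257 (2.72%) held as many summits or more. In both replicates the order of the 3 peaks was Hsp27, then Hsp26, then Hsp22.

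**Figure D1:**
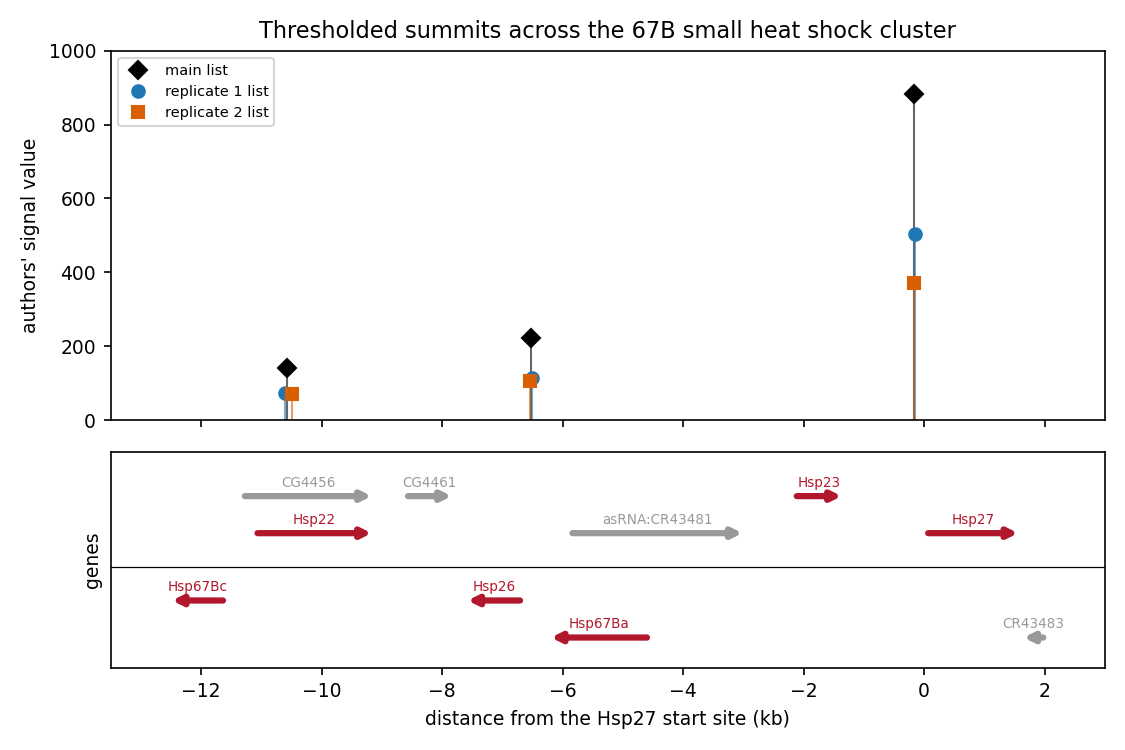
Signal value of each thresholded summit (upper panel, bars from 0) and annotated genes (lower panel, arrows pointing along transcription, members in red) across the 67B cluster, against distance from the Hsp27 start site in kb. All 3 summits recur in the main list and in both replicates, and Hsp27 is the highest in each (882, 505 and 370).

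Hsp83, the fly cytosolic HSP90, had 2 peaks. The stronger lay in its intron, 1022 bp downstream of the nearer start site, with a signal of 319 in the main list (rank 267), 161 in replicate 1 (rank 353) and 151 in replicate 2 (rank 256). Its replicate summits were 15 bp apart, and it ranked at 11% and 9.45% of the lists. It is shown because it is the second strongest of the 8 and the only member summit more than 1000 bp from its nearest start site, though just past that limit. Capitals mark TAATTA and the word CACTG on the coding strand or its reverse, and the summit is base 95.
Hsp83 intron, chr3L:3194144-3194367, plus strand: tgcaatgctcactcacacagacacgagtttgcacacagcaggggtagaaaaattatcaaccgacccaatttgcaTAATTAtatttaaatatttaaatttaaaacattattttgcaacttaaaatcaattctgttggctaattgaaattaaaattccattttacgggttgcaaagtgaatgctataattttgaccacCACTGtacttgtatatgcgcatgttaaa

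This window held 1 TAATTA, with its first base 20 bp from the summit, and 7 matches to TAAT. The word CACTG, present within 100 bp of 52.9% of main-list summits, lay 102 bp away and so outside that window.

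The weaker Hsp83 peak lay 64 bp upstream of the same start site. It was in the 5′ UTR of the transcript that begins 247 bp upstream of that start site. Its main-list signal was 97.1 (rank 1904) and its replicate 2 signal 72.0 (rank 1039, at 38.4% of the list). Replicate 1 had only a relaxed peak there, of signal 32.2, rank 3894 of 65336 and IDR 0.039, above the 0.01 limit. The start of CG14965, on the other strand, lay 661 bp from this summit. At 50.2% GC within 100 bp it was the richest in G and C of the 8 windows, and it held no TAAT.

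The 30 bases around the middle of this peak are shown for their array of heat shock units. The heat shock element was searched as 3 alternating units, GAA and its reverse TTC with 2 free bases between units, and no member peak held an exact one within 100 bp of its summit, against 0.184% of all main-list peaks. When 1 of the 9 fixed bases was allowed to differ, a setting chosen after seeing the data, the Hsp83 window held 4 overlapping matches, and their span is in capitals. The summit is base 16.
Hsp83 promoter, chr3L:3193137-3193166, plus strand: aGAAGCCTCTAGAAGTTTCTAGAGACTTCc

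These matches started 78 to 63 bp before the start site, with centres 2 to 8 bp from the summit. With 1 mismatch, 5.46% of main-list windows held at least 1 match, and 2 of the 3260 (0.0613%) held 4 or more. The second of them was at Ance-3. A match describes letters and not occupancy by Hsf.

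The mitochondrial HSP70 gene Hsc70-5 had a summit 106 bp upstream of its nearest start site, with a main-list signal of 205 (rank 633). Replicate 1 had a signal of 171 (rank 309, at 9.61%), with its summit at -52 bp. Replicate 2 had only a relaxed peak, at -183 bp, whose signal was 65.4 and whose IDR was 0.213 (rank 1294 of 89463). The replicate summits were 131 bp apart, the widest gap of the 8. CG8531, transcribed the other way, starts 301 bp from Hsc70-5, and the summit lies between both starts, 195 bp upstream of CG8531. At 22.9% its GC content was the lowest of the 8.

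Starvin (stv) encodes the fly BAG-family co-chaperone, a partner of HSP70 that muscle depends on. Its stronger peak lay 570 bp upstream of the first of its 4 start sites, with a signal of 245 in the main list (rank 456), 154 in replicate 1 (rank 387) and 82.7 in replicate 2 (rank 823). The summits of the replicates were 4 bp apart, the tightest of the 8, while the ranks differed most among the peaks found in both lists, at 12% and 30.4%. It is printed as the upstream region of a gene with many promoters. Capitals mark CACTG, and the summit is base 127.
stv, chr3L:13476845-13477007, plus strand: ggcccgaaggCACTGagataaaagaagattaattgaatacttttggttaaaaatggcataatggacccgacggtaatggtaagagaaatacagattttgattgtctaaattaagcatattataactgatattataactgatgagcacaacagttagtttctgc

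The 100 bp on each side of this summit held 7 TAAT and no CACTG, whose nearest match lay 116 bp away. The second stv peak, at -371 bp, overlapped the first by its edge and had a signal of 16.8, rank 3144 of 3260, the weakest of the 8. The peak that overlapped it in each replicate was the same that overlapped the first, with summits 204 and 200 bp away, and the pooled list did not hold it. It therefore has no replicate peak of its own. Its window held 7 GAGAG, a count reached by 16 main-list peaks (0.491%). Replicate 1 also had a peak of 39.4 (rank 2774) in an stv intron, 488 bp upstream of an inner start site, which no other thresholded list held.

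Hsf, the heat shock factor itself, had no thresholded peak and no relaxed peak in the full list behind the main list or in replicate 1. Replicate 2 had a strongest relaxed peak of 24.6 in its coding sequence (rank 9185, IDR 0.314). The nearest main-list summit lay 22056 bp from its start site.

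**Figure D2:**
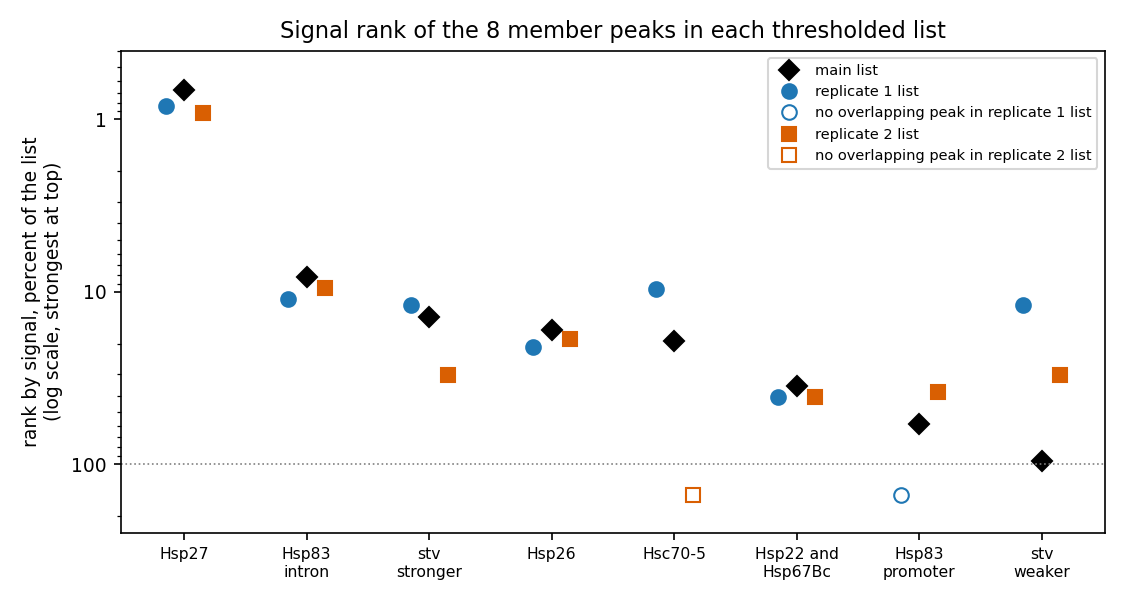
Rank by signal of the 8 member peaks as a percent of each thresholded list (log axis, strongest at the top); filled symbols are the main list and each replicate, and open symbols below the dotted line are peaks with no overlapping thresholded peak in that replicate. Hsp27 stays in the top 1% of all 3 lists, and both stv peaks are overlapped by one replicate peak, so they show the same replicate values.

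The order of the genes differed below Hsp27. In replicate 1 it was Hsp27, Hsc70-5, Hsp83, stv, Hsp26 and then the peak of Hsp22 and Hsp67Bc, and in replicate 2 it was Hsp27, Hsp83, Hsp26, stv and Hsp22. Hsc70-5, the second in replicate 1, was missing from replicate 2, while Hsp83, Hsp26 and stv lay within 20.8% of the top in replicate 1 and spread from 9.45% to 30.4% in replicate 2. Stv and Hsp26 changed places between the replicates, so their order could not be told apart from the spread. Among the 5 genes found in both, Hsp27 came first, Hsp83 second and Hsp22 last in each replicate.

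Of the 8 member peaks, 6 overlapped a thresholded peak of both replicates by at least 1 bp, beside 54.8% of the main list (1788 peaks). One of the 6 is the weaker stv peak, which only touched the replicate peaks of the stronger one, so 5 peaks had a thresholded peak of their own in both. With an overlap of 50% of both peaks required, 5 did, beside 38.8%. All 8 overlapped a relaxed peak of both replicates. With each pair of replicate summits counted once, which leaves 7 for the members, their median distance was 41 bp (range 4 to 131 bp), beside 30 bp over the 3044 pairs of the main list, with quartiles of 12 and 56 bp.

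Of the 8 summits 7 lay within 1000 bp of a start site, all upstream of the start nearest to them in the main list, at a median of -161 bp (range -570 to -64 bp). In replicate 1 the Hsp22 summit was nearer to the gene's first start, 526 bp downstream of it. Over all 1581 main-list summits within that distance the median was -129 bp (quartiles -283 and 27 bp), and 73.2% were upstream. The windows of 100 bp on each side had a mean GC content of 34% (SD 9.35, n = 8 peaks) beside 35.7% (SD 6.98) over the main list. The median position and mean GC content lay inside the bulk of the list, while single peaks did not: the summits at -570, -506 and -371 bp lay beyond the lower quartile of position, and the Hsp83 promoter window, at 50.2% GC, lay more than 2 SD above the list's mean.

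**Figure D3:**
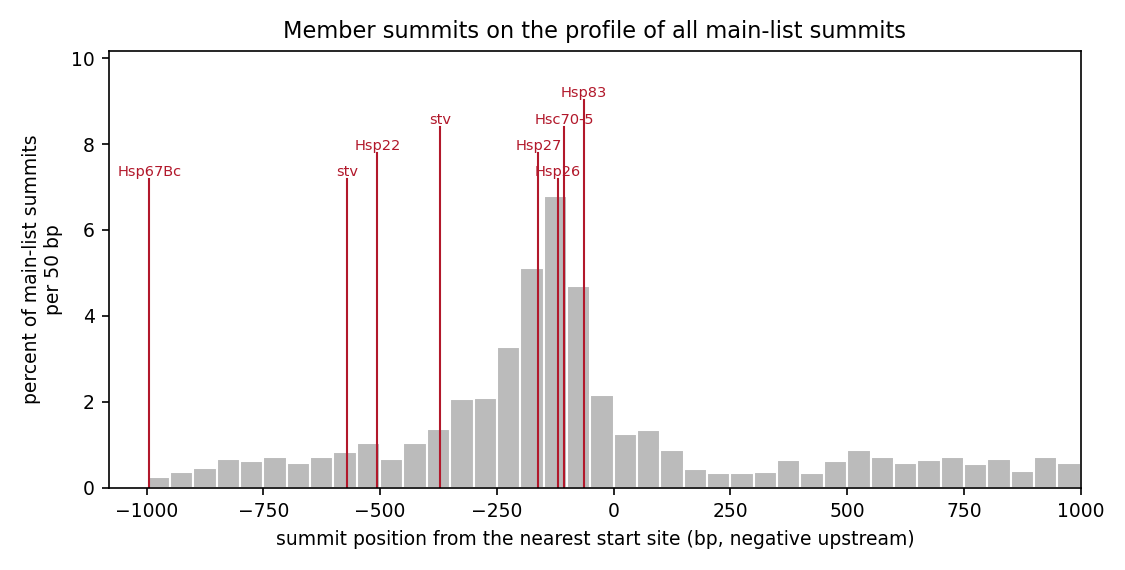
Percent of main-list summits in each 50 bp bin by position from the nearest start site (grey bars, negative upstream), with each member gene's summits within 1000 bp as red lines whose height carries no value. Hsp27, Hsp26, Hsc70-5 and Hsp83 stand in the tallest part between -161 and -64 bp, and Hsp67Bc stands at -994 bp because it shares the Hsp22 peak.

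The words searched within 100 bp of the summits were spread unevenly over the 8 peaks. CACTG occurred at 2 (the weaker Hsp83 and stv peaks) beside 52.9% of all main-list peaks. TAATTA occurred at 2 (Hsp22 and the Hsp83 intron) beside 16.5%, and TAAT at 6 beside 92.4%. GAGAG occurred at 2 (Hsp26 and the weaker stv peak) beside 24.5%. TATAAA on either strand occurred at 5 beside 36%, and the unit pair at 3 beside 11%. TATCGATA, a word of the boundary factor BEAF and of DREF, occurred at none beside 1.35%. The weaker peaks of Hsp83 and stv differed from the other 6: they held no TAAT, held CACTG, and had the highest GC contents of the 8 (50.2% and 44.8%). With 2 peaks on one side this split, seen after the values were known, is a description only.

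**Figure D4:**
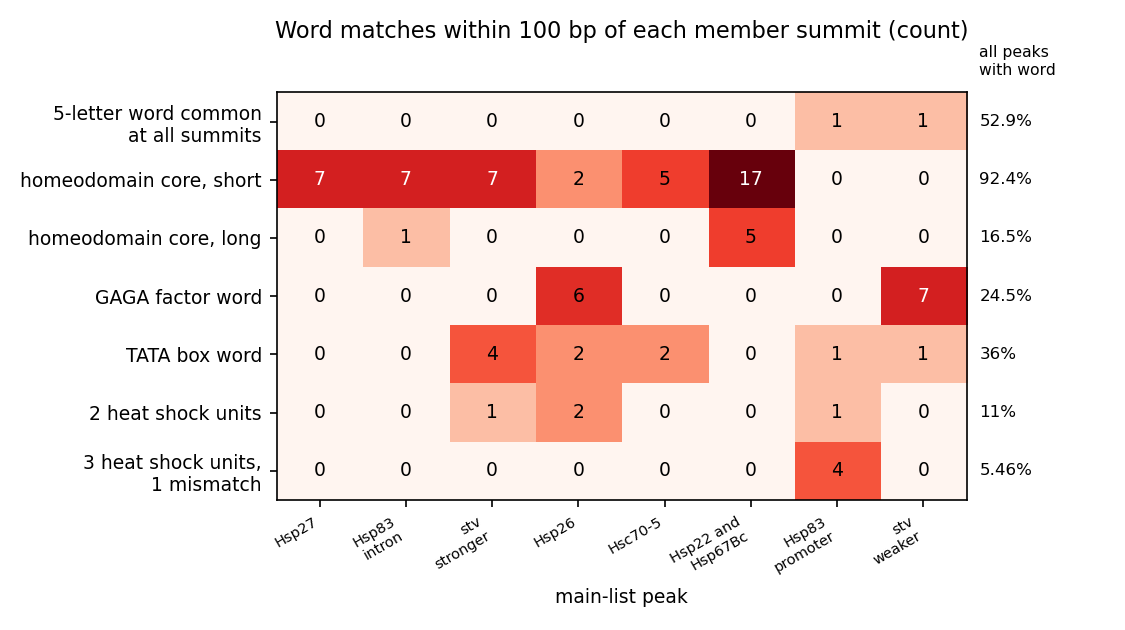
Number of matches to each word within 100 bp of each member summit (cells, darker for more; rows from the top are CACTG, the short and the long homeodomain core, the GAGA and TATA words, and arrays of 2 heat shock units and of 3 with 1 mismatch), beside the percent of all 3260 main-list peaks that hold the word. The most matches to the long core are at Hsp22 (5), the heat shock array at the Hsp83 promoter (4), and the GAGA runs at Hsp26 (6) and the weaker stv peak (7).

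Heat shock elements near the start sites mostly lay outside the main-list peaks, to whose edges the distances below refer. In the window from 250 bp before to 50 bp after a start site, no member had an exact element of 3 units, beside 0.411% of 23584 start sites. With 1 mismatch allowed, 5 of 10 members did (Hsp22, Hsp23, Hsp26, Hsp83 and stv), beside 10.1% of all genes. Reaching back to 500 bp, only Hsp23 had an exact element, which started 405 bp before its start site, beside 0.755% of all start sites. With 1 mismatch 6 members had one in this longer window, Hsp27 being the sixth, beside 14.6% of all start sites. That share counts start sites singly, whereas a member was counted for a match at any of its up to 4 start sites. It is therefore not like for like with the 6 members or with the 10.1% of genes. The matches of Hsp27 started at -348 and -343 bp and lay 31 and 26 bp beyond the edge of its peak. The 5 matches of Hsp26 flanked its 170 bp main-list peak on both sides, the nearest 8 bp from its edge and the farthest 104 bp. In replicate 2 the Hsp26 peak was 296 bp wide and covered the matches 8, 25 and 30 bp from the main-list edge. The match of Hsp22 was 250 bp from its peak, and that of stv, at an inner start site, 3000 bp away. Hsp83 alone had its matches inside a main-list member peak, and Hsp23, with 4 matches, had no peak. Within 170 bp of the summits, 3 of the 8 member peaks held a match with 1 mismatch, beside 8.07% of the main list.

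A TATA box word stood before many of the start sites. TATAAA began 35 to 25 bp before a start site on the coding strand in 7 of 10 members, at -27 bp in Hsp23, -28 bp in Hsp22, Hsp26, Hsp27 and Hsp67Bc, -29 bp in stv and -30 bp in Hsp83. Each of the 7 genes had it at 1 start site, of 17 start sites in all members, and in stv it was an inner one, not the start near its peaks. Of all genes 6.27% had one there, or 7.6% of protein-coding genes. Hsp67Ba, Hsc70-5 and Hsf had none in that band, which was set after seeing the data. One of the 7, Hsp23, had no peak, and Hsc70-5, which lacked the word, had one. In gene structure, Hsp23, Hsp26, Hsp27, Hsp67Ba and Hsp67Bc have a single exon, as has one of the Hsp22 transcripts, while Hsp83 has 2, Hsc70-5 has 6, stv 3 to 4 and Hsf 7 to 9.

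The genes whose strongest promoter peak was most like that of Hsp27, by the summed difference of rank percent in both replicates' ranked lists, were CG3552 and CG3437, which share one peak, and ph-p, a Polycomb group gene. The shared peak had a summed difference of 0.00641 percentage points and a main-list signal of 862 (rank 26), and that of ph-p 0.0165 points and 954 (rank 17). Hsp27 itself stood at 0.0444% and 0.0313% of the replicates' ranked lists.

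A wider list of 53 other chaperone and co-chaperone genes, of which 52 were matched in the annotation, had a main-list peak at 6. This is 11.5% (95% Wilson interval 5.4 to 23%, counting error only), beside 13.7% of all genes. One of the 6 was CG4456, listed by its older name Hsp67Bb and counted through the peak it shares with Hsp22. Whether its protein acts as a chaperone was not tested. The others included Hsc70-4, the main cytosolic HSP70, with a signal of 128 at -156 bp (rank 1349). The J-domain co-chaperone mrj had 2 peaks, the stronger of 246 (rank 453) in an intron. Gp93, the HSP90 of the endoplasmic reticulum, had 91.7 at -113 bp. The chaperonin subunits CCT3 and CCT8, parts of the ring that folds actin and tubulin, had 92.6 at -499 bp and 93.7 at -464 bp. CG4456, Hsc70-4 and mrj had a thresholded peak in both replicates, and Gp93, CCT3 and CCT8 had none in replicate 2. None of the 10 listed co-chaperones of HSP70 or HSP90 outside the J-domain family had one in any of the 4 thresholded lists. Of the listed HSP70 genes 1 of 12 had a main-list peak, and of the chaperonin genes 2 of 12.

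**Figure D5:**
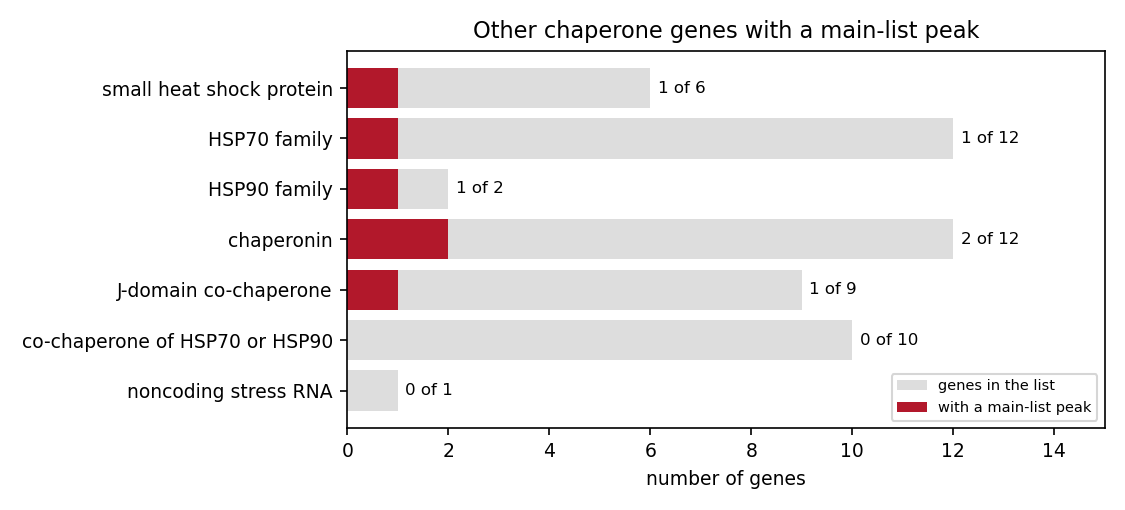
Number of other chaperone genes in each family of the list (grey) and number with a main-list peak (red). At 6 of 52 genes in all, no family has more than 2 genes with a peak. The only gene counted in the small heat shock family is CG4456, which shares the Hsp22 peak.

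Among the heat-inducible genes of that list, lncRNA:Hsromega, the noncoding stress RNA, and Hsp70Ba, one of the near-identical Hsp70 copies, had no thresholded peak but relaxed peaks past the IDR limit, the former in all 4 ranked lists and the latter in 2. At lncRNA:Hsromega the summit lay 203 bp inside the gene with a signal of 173 (rank 838 of 97080, IDR 4.46e-05), 118 in replicate 1 (rank 645) and 60.8 in replicate 2 (rank 1442). At Hsp70Ba it lay 77 bp upstream in replicate 2, with a signal of 63.7 and an IDR of 0.000387, and replicate 1 had no relaxed peak there. In the ranked list behind the main list its signal was 76.7 with an IDR of 0.676, so there it did not pass the limit, while in the pooled ranked list it did (IDR 0.000959). Reads from the Hsp70 copies could be split among them, so this value is uncertain. In all, 73 of the 3333 relaxed peaks past the limit behind the main list (2.19%) were missing from it, that of lncRNA:Hsromega included and none of them at a member, and what removed them was not tested.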

How the data were processed

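ChIP-seq peaks from whole prepupae of the CG11294-eGFP line, with the antibody labelled in 2 ways, were used as the authors deposited them on build dm6, per the labels, with 2 replicates in 1 group. The sources used here give no aligner, peak caller or depth. Every replicate has a relaxed, ranked peak list and its thresholded part, and the series has 2 such pairs, 8 lists in all. The signal value of each peak and the −log10 of its global IDR are the authors' values, per the file layout, and no value was rescaled. Which ranked list of the series belonged to the main list was inferred from matching peaks, and 16 columns with per-replicate values in the series lists were not used. Only the 6 main arms were kept.

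Genes and start sites came from Ensembl release 115, and sequence from the RefSeq Release 6 genome, whose arm lengths held every peak. Words were searched on both strands, overlapping matches counted. Counting was tested on simulated peaks. Python 3.11.15, numpy 2.4.6, pandas 2.3.3 and scipy 1.17.1 were used. The members and lists were chosen with earlier results of these data known. Named genes are all members, genes sharing their peaks, listed chaperones with a main-list peak, and the 3 protein-coding genes most like Hsp27. SA1, Gas41, Ance-3, lncRNA:Hsromega and Hsp70Ba were named after their values were seen. Of 53 listed genes 3 were matched by a RefSeq synonym and 1 was not matched. No p-value was computed. The error given is the spread between the 2 replicates, beside SDs over peaks and a Wilson interval for counting error. Alternatives were the pooled list, each replicate alone, the stronger part of the list, other windows, overlaps and word definitions.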

Additional observations from a re-analysis of the deposited data

How the results depend on the processing

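No paired analysis was possible because the labels give 1 group only. The number of members with a peak stayed between 5 and 8 under the settings tried, with 6 for a window of 500 bp, 8 for 2000 bp, and 5 to 7 for either replicate alone. The ranks of each member's strongest peak were counted apart, and 24 of their alternative values moved while 2 did not. For example, stv went from 14% of the list to 30.4% in replicate 2, and Hsc70-5 from 19.4% to 9.61% in replicate 1. Of the alternative values of the other main results, 35 stayed within their limits and the 20 given here did not. The limits were wide enough that a fall from 7 to 5 members counted as within them. The percent of all genes with a peak was 17.5 in the pooled list, 12 to 14.9 with either replicate alone, 8.74 among the 1630 strongest peaks of the list, 12.3 and 16.6 with windows of 500 and 2000 bp, and 10.6 without the gene body. The other chaperone genes with a peak fell from 6 to 3 among the 1630 strongest. The median position of the member promoter summits was -140 bp in the pooled list and -161 to -142 bp with either replicate alone. Member peaks with CACTG numbered 1 within 50 bp, 5 within 170 bp and 1 in the pooled list, and those with GAGAG 1 within 50 bp and 1 in the pooled list. Member peaks with a heat shock element numbered 1 with 1 mismatch. Members with one at any of their start sites numbered 5 with 2 units, 1 with 500 bp, 5 with 1 mismatch and 6 with both. The shares of all start sites were 15.7%, 0.755%, 8.21% and 14.6% in that order. These shares count start sites singly, whereas a member can have up to 4, so they are not like for like with the counts of members. By gene, the share with 1 mismatch in the 250 bp window was 10.1%. The mismatch settings were added after seeing the data. The cause of these shifts was not tested, beyond fewer peaks or wider windows by construction. The unknown depth, the absent control comparison and 2 replicates limit what a missing peak shows.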
